A study of Arabidopsis thaliana with 4 samples.

Results

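ACS5, ACO4 and ETR2 are genes of Arabidopsis thaliana that make or sense the hormone ethylene, and they were followed in roots with and without cadmium. They were taken as every deposited row whose identifier begins with AT5G65800 (ACS5), AT1G05010 (ACO4) or AT3G23150 (ETR2), which gave 3 of the 1487 gene loci listed in either of 2 deposited tables. Each gene had 1 listed transcript model per table: ACS5 in both, ACO4 in the Col table and ETR2 in the ein3eil1 table. The 4 groups compared were 5-day-old seedlings on MS medium, with 1 RNA library each: the ein3-1eil1-1 double mutant (ein3eil1) given 150 µM CdSO4 for 6 h, untreated ein3eil1, the wild type Col-0 (Col) given the same Cd treatment, and untreated Col. EIN3 and EIL1 themselves were not listed in either table, so no value here checks the genotype of the mutant. With 1 library per group no difference below has a replicate check and no test was made.

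Plants make ethylene from S-adenosylmethionine. ACC synthases such as ACS5 form the precursor ACC, and ACC oxidases such as ACO4, also called ethylene-forming enzyme, turn ACC into ethylene. Receptors such as ETR2 sit in the endoplasmic reticulum membrane and hold the pathway off until they bind ethylene. Signalling then passes through EIN2 to the transcription factors EIN3 and EIL1, which switch on ethylene-responsive genes. In Arabidopsis ETR2 is itself known as an ethylene-induced transcript, and ACS5 protein is known to be broken down with the help of ETO1.

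The libraries held 16773595 to 19192279 reads. A level is given as reads and as RPKM, which is reads per kilobase of model length, scaled to the library total. Intervals are 95% exact intervals and cover counting error only, since reads of amplified libraries are not independent molecules. The tables hold models at least 2-fold apart between the Cd and the control library and with a deposited false discovery rate (FDR) of at most 0.000987, so a gene that is not listed may have changed less, had too few reads or be missing for another reason. The fewest reads over both libraries of any listed model were 13 in ein3eil1 and 12 in Col. Of the models tested by the authors, 3.5% were listed in ein3eil1 and 2.81% in Col. The labels give the controls no treatment and do not say whether they were handled alike over the same time, so handling and Cd cannot be told apart. The labels name root tip and primary root. None of 5 root meristem and 3 root cap markers was listed, so the tissue could not be checked from them.

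The bases before the annotated transcript start are shown for the 3 genes because EIN3 acts by binding DNA near its targets. Each window holds the 300 bases before the start in the RefSeq annotation of the TAIR10.1 genome, 5′ to 3′ on the strand of the gene: chr5:26332813-26333112 (minus strand) for ACS5, chr1:1433011-1433310 (minus strand) for ACO4 and chr3:8254259-8254558 (plus strand) for ETR2. Capitals mark a match to ATGTAC or ATGTAT, which carry the core bound by EIN3, or to the GCC box GCCGCC bound by ERF factors, on either strand.
ACS5: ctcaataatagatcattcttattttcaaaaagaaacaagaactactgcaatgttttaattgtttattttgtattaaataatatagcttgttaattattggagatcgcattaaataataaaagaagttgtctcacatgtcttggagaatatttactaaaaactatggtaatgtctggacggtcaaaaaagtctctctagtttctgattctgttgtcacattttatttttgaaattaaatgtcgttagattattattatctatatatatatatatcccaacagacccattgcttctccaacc
ACO4: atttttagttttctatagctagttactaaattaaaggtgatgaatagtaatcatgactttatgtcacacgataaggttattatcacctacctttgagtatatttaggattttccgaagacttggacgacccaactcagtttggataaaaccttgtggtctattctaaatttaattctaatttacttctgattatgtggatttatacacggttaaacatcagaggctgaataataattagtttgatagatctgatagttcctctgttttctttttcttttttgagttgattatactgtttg
ETR2: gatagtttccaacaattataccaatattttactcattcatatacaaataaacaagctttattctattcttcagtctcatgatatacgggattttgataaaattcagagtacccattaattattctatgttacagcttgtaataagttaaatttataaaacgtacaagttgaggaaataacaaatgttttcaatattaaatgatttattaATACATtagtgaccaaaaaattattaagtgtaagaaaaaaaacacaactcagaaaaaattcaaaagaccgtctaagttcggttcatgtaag
The ETR2 window held 1 match, ATGTAT on the opposite strand, which begins 91 bases before the annotated start. The deposited models of ETR2 and ACO4 begin further into the gene than the RefSeq start used here, so this position depends on the start chosen, while that of ACS5 begins at the same base. The ACS5 and ACO4 windows held no match to these letters. No other letters were searched, so a form of the EIN3 core spelled otherwise would not be marked in any window. ATGTAC or ATGTAT was found in 35.6% of the same windows of 27443 protein-coding genes, ATGTAT alone in 28.1%, and GCCGCC in 2.26%. A match is a description of letters and not a binding site. The windows were 27.0% (ACS5), 30.0% (ACO4) and 25.3% (ETR2) G and C, against a median of 31.3% over all windows.

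ACS5 was about 11-fold lower with Cd in both genotypes, at the bottom of what the libraries could count. In ein3eil1 it had 3 reads with Cd, against 33 reads in the control, or 0.0951 and 1.03 RPKM. In Col it had 2 reads with Cd, against 26 reads in the control, or 0.0635 and 0.722 RPKM. Both Cd libraries were low and both control libraries were higher, with no overlap of their counting intervals. With Cd the interval ran from 0.0196 to 0.278 RPKM in ein3eil1 and from 0.00769 to 0.229 RPKM in Col. In the control it ran from 0.712 to 1.45 RPKM in ein3eil1 and from 0.471 to 1.06 RPKM in Col.

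**Figure D1:**
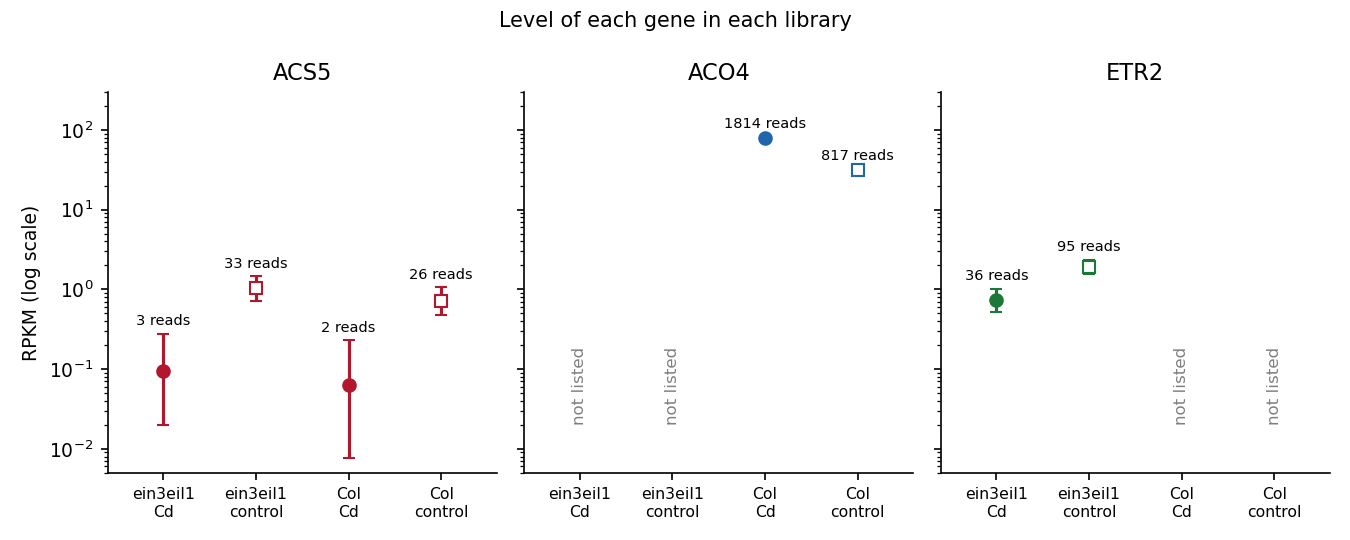
RPKM on a log axis of ACS5, ACO4 and ETR2 in each of the 4 libraries (filled circles, Cd; open squares, control), with the read number above each point and bars for the 95% exact Poisson counting interval. ACS5 lies at 0.0951 and 0.0635 RPKM in the ein3eil1 and Col Cd libraries, below both controls, and a library of a table that does not hold the gene is marked as not listed.

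As a ratio, ACS5 was 10.9-fold lower with Cd in ein3eil1 (interval 3.41 to 55.4) and 11.4-fold lower in Col (2.84 to 98.8). The log2 ratios of Cd over control were -3.44 (-5.79 to -1.77) in ein3eil1 and -3.51 (-6.63 to -1.51) in Col. The width of these intervals comes from the 3 and 2 reads with Cd. In the authors' deposited tables the FDR of ACS5 was 1.46e-06 in ein3eil1 and 7.4e-05 in Col. These compare the reads of 2 libraries and know no spread between plants. By fold, ACS5 was in place 18 of 369 lower models in ein3eil1 and in place 29 of 358 in Col. In a library with 0 reads the deposited RPKM is 0.001, which sets the fold of 19 listed models in ein3eil1 and 27 in Col. Places by fold, here and below, depend on this. Over both genotypes together the gene rests on 5 reads with Cd, against 59 reads in the controls.

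The difference of the Cd log2 ratios, ein3eil1 minus Col, was 0.06, with a 95% normal counting interval from -2.62 to 2.75. A change of several-fold in either direction lies within this interval, so a difference between genotypes was not detectable at this depth. Without Cd, ACS5 was 1.43-fold higher in ein3eil1 than in Col (33 reads, against 26; interval 0.831 to 2.50). With Cd the log2 ratio of ein3eil1 over Col was 0.58 (3 reads, against 2; interval -2.54 to 4.16). Both intervals hold equal levels. Among the 290 models listed in both tables the median log2 ratio of ein3eil1 over Col was 0.32 without Cd and 0.27 with Cd, beside 0.52 and 0.58 for ACS5. Of these 290 models, 109 were lower with Cd in both genotypes, and 10 of them, ACS5 included, were at least 8-fold lower in both. Where a library had 0 reads, the fold rests on the deposited RPKM of 0.001.

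**Figure D2:**
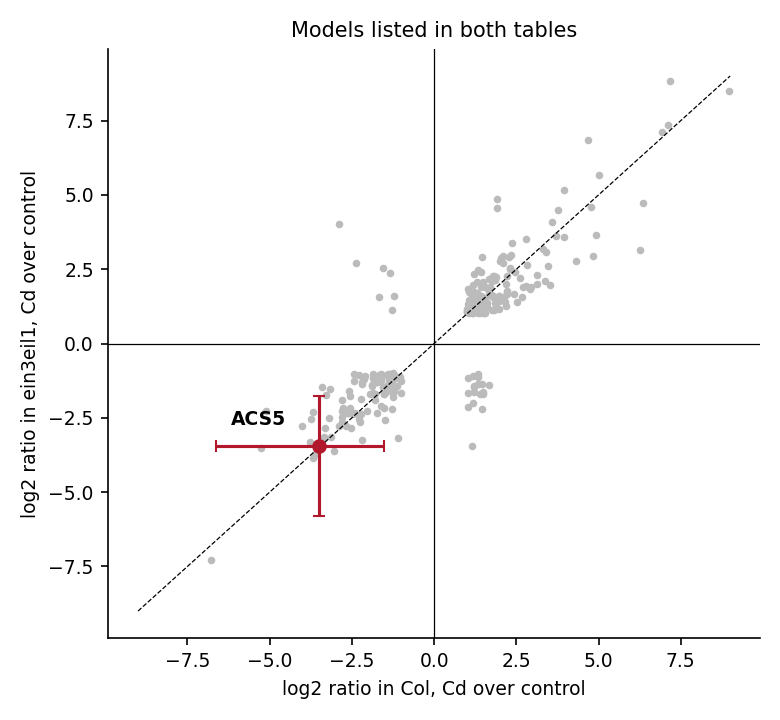
Log2 ratio of Cd over control in ein3eil1 (vertical) against Col (horizontal) for the 280 models listed in both tables with reads in all 4 libraries; the dashed line marks equal ratios. ACS5, with its 95% exact counting intervals as bars, lies close to the line at -3.44 and -3.51, and its bars span several units on both axes.

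ACS5 (deposited model AT5G65800.1, chromosome 5, 26330746 to 26332812, reverse strand, build not named in the tables) is 1877 bases long as a transcript. It belongs to the family of ACC synthase genes. In the TAIR10.1 coding sequences it was 84.3% identical to ACS9, 73.0% to ACS8 and 71.7% to ACS4, each another ACC synthase gene. The longest stretch that ACS5 and ACS9 share without a difference is 29 bases, at bases 1201 to 1229 of the ACS5 coding sequence, and is shown because a read must be longer than this to tell the genes apart there.
ACS5 and ACS9: gaaccgggttggtttagggtttgtttcgc
None of ACS9, ACS8 and ACS4 was listed. The sources used here do not say how reads of near copies were assigned.

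ACO4 was higher with Cd in Col, and its level was above that of ACS5 in both Col libraries. It had 1814 reads with Cd, against 817 reads in the control, or 79.3 and 31.2 RPKM. The Cd library lay above the control library, with intervals of 75.7 to 83.0 RPKM with Cd and 29.1 to 33.4 RPKM in the control. The ratio was 2.54-fold (2.34 to 2.76), a log2 ratio of 1.35 (1.23 to 1.47). The FDR in the authors' deposited table was 9.39e-116, which reflects the many reads. By fold ACO4 was in place 265 of 449 higher models in Col, so its ratio was near the middle of them. By level it stood higher: 94.3% of listed models had a lower RPKM with Cd and 84.4% a lower RPKM in the control. ACO4 was not listed in ein3eil1, and whether its ratio differed between genotypes was not tested.

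ACO4 (model AT1G05010.1, chromosome 1, 1431190 to 1432858, reverse strand, 1364 bases) had a coding sequence 67.0% identical to that of ACO3, another ACC oxidase gene, with no shared stretch longer than 19 bases. No other gene of the ACC oxidase list was listed in either genotype.

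ETR2 was lower with Cd in ein3eil1. It had 36 reads with Cd, against 95 reads in the control, or 0.741 and 1.93 RPKM. The Cd library lay below the control library, with intervals of 0.519 to 1.03 RPKM with Cd and 1.56 to 2.36 RPKM in the control. The gene was 2.61-fold lower (1.76 to 3.94), a log2 ratio of -1.38 (-1.98 to -0.82). The FDR in the authors' deposited table was 2.38e-06. By fold ETR2 was in place 194 of 369 lower models, near their median log2 ratio of -1.41. ETR2 was not listed in Col, and whether its ratio differed between genotypes was not tested.

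ETR2 (model AT3G23150.1, chromosome 3, 8254663 to 8257735, forward strand, 2893 bases) was the 1 listed gene of 5 ethylene receptors. Its nearest relative by coding sequence was EIN4, at 58.5% identity, and no stretch longer than 14 bases was shared with any other receptor. ETR1, ERS1, ERS2 and EIN4 were not listed in either genotype.

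**Figure D3:**
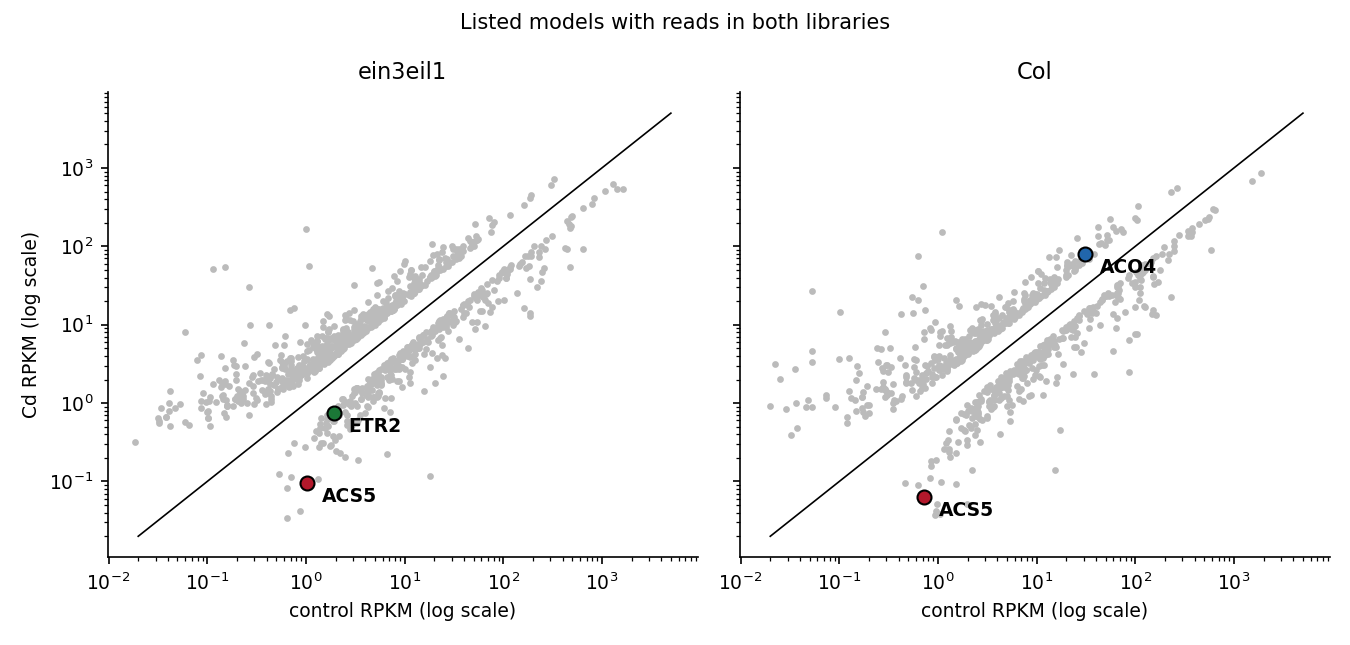
RPKM with Cd (vertical) against RPKM in the control (horizontal), both on log axes, for the listed models with reads in both libraries: 982 in ein3eil1 (left) and 780 in Col (right); the line marks equal levels and the empty band around it is the 2-fold limit of the tables. ACS5 and ETR2 lie below the line among the models of low level, and ACO4 lies above it at 79.3 RPKM with Cd.

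The 3 genes thus span a wide range of levels per length. With Cd in Col, ACO4 stood at 79.3 RPKM and ACS5 at 0.0635 RPKM. In ein3eil1 with Cd, ETR2 stood at 0.741 RPKM and ACS5 at 0.0951 RPKM, and without Cd ETR2 stood at 1.93 RPKM and ACS5 at 1.03 RPKM, above ACS5 in both libraries. Among models listed for ein3eil1, 0.799% had a lower level with Cd than ACS5 and 7.69% a lower level than ETR2. Since ACO4 and ETR2 are never in the same table, their levels were not compared in 1 library.

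The rest of the pathway was read from 8 lists with 78 genes, the 3 members included. In ein3eil1, 7 of the 78 genes were listed (8.97%, beside 3.5% of all models tested): 1 was higher and 6 were lower, beside 2.21% and 1.29% of all models. In Col, 2 of the 78 were listed (2.56%, beside 2.81%), ACO4 as higher and ACS5 as lower, beside 1.56% and 1.24% of all models. The members were chosen from listed rows, and 2 of the 7 genes in ein3eil1 and both genes in Col are members. That choice raises these shares, so they give no result about the pathway. A minimum of 1 RPKM in the higher of the libraries left the same 7 genes in ein3eil1, beside 3.33% of all models (2.08% higher and 1.25% lower), and ACO4 alone in Col, beside 2.67% (1.48% higher and 1.19% lower). The median log2 ratio of the 7 listed genes in ein3eil1 was -1.38, the value of the member ETR2. That of all listed models was 1.16, with 632 models higher, 369 lower and none less than 2-fold apart. These medians give no result about the pathway. ACS5 stayed under 1 RPKM in both Col libraries.

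In synthesis, none of 13 genes for S-adenosylmethionine and methionine salvage and none of the 3 genes for ACC synthase turnover (ETO1, EOL1 and EOL2) was listed, and of 9 ACC synthases ACS5 was the 1 listed. In signalling, none of 14 genes was listed, among them CTR1, EIN2, EBF1, EBF2, EIN3 and EIL1. Downstream, 3 of 9 ethylene-responsive genes were listed in ein3eil1. EDF4, also called RAV1, a DNA-binding protein, had 1298 reads with Cd, against 2902 reads in the control, or 49.0 and 108 RPKM, 2.21-fold lower (2.07 to 2.36). ARL, an ARGOS-like gene linked to organ growth, had 48 reads with Cd, against 111 reads in the control, 2.29-fold lower (1.62 to 3.28).

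HLS1, needed for the apical hook of seedlings, was the 1 higher gene in ein3eil1, with 293 reads with Cd, against 130 reads in the control, or 9.45 and 4.14 RPKM (2.28-fold, 1.85 to 2.82). Of 20 ERF factors, which share a DNA-binding domain, 2 were listed in ein3eil1 and none in Col. ERF109, a redox-responsive factor, had 53.5 RPKM with Cd, against 169 RPKM in the control (3.15-fold lower, 2.96 to 3.36). HRE1, a low-oxygen factor, had 1.98 RPKM with Cd, against 5.82 RPKM in the control for the model AT1G72360.2 (2.93-fold lower, 1.93 to 4.56). In the same ein3eil1 libraries 3 of 9 leaf photosynthesis markers (RBCS1A, RBCS3B and LHCB2.1) were listed, all higher, with a summed level of 75.0 RPKM with Cd, against 31.4 RPKM in the control. None was listed in Col. Their part in these values was not tested, and in bulk root RNA fewer cells of a type and less RNA per cell cannot be told apart.

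**Figure D4:**
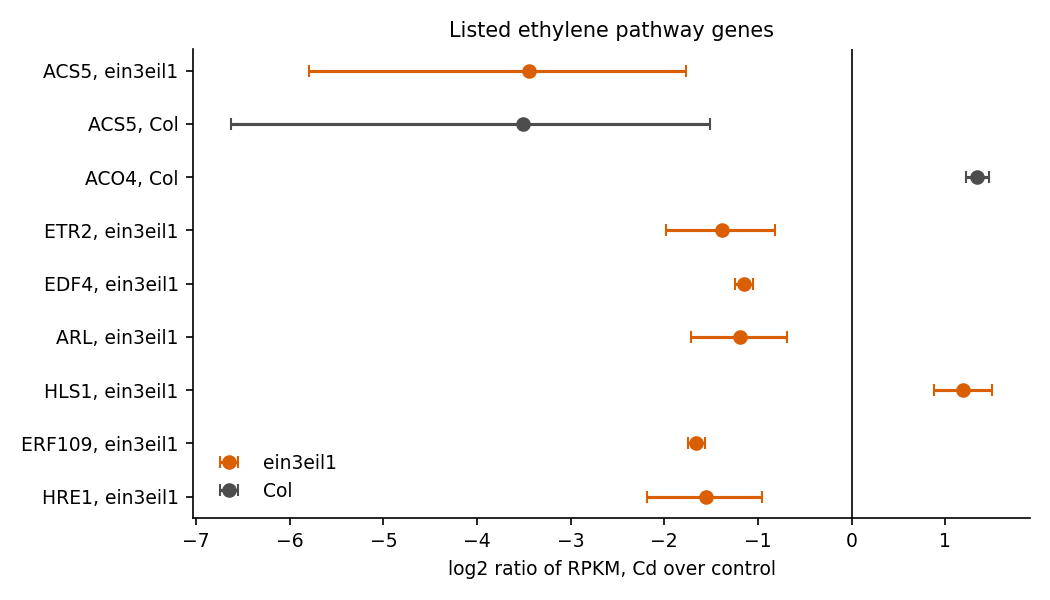
Log2 ratio of RPKM, Cd over control, of each listed ethylene pathway gene in ein3eil1 (orange) and Col (grey), with 95% exact counting intervals as bars. ACO4 in Col and HLS1 in ein3eil1 lie right of 0 and the other values lie left of it, with the widest bars for ACS5.

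Models at other loci with the most similar levels were found by Euclidean distance between log2 RPKM values, with 0 reads set to 3. The 2 reads of ACS5 in Col with Cd were left as they were, so a model with 0 reads there was placed above ACS5, and the distances and order for ACS5 rest on this. Over 4 libraries and the 290 shared models, those nearest to ACS5 were the cupredoxin gene AT1G22480 (distance 1.97), NF-YB5, for a subunit of a transcription factor (2.70), and AT4G17860, of unknown function (3.04). AT1G22480 had 0 reads with Cd, against 22 reads in the control, in ein3eil1, and 0 reads, against 15, in Col, so it is also at the bottom of the count. Over the 2 Col libraries those nearest to ACO4 were the flavin monooxygenase gene AT1G12200 (0.11), the transposable element gene AT1G80020 (0.12) and SHM7, for a serine hydroxymethyltransferase (0.13). SHM7 had 82.8 RPKM with Cd, against 33.8 RPKM in the control. Over the 2 ein3eil1 libraries those nearest to ETR2 were AT1G80380 (0.09), the amino acid transporter gene AT5G38820 (0.13) and AT2G34240 (0.15). With 2 libraries a small distance says only that both levels are alike.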

How the data were processed

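Root RNA was extracted with Trizol and sequenced as random-primed cDNA on an Illumina instrument, per the labels' protocols. The sources used here name no aligner, counting tool, strand setting or genome build. For each genotype there is 1 table deposited by the authors. Per the file headers, it gives the read count and RPKM of each gene model with Cd and in the control, their log2 ratio, and the p-value and FDR of the comparison. Where the deposited count is 0, the deposited RPKM is 0.001. Library totals were worked out from counts, model lengths and RPKM. The numbers of models tested, 28617 in ein3eil1 and 28758 in Col, are those at which each of the deposited FDR values checked (963 and 769) has a whole rank.

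Ratios were computed from counts and totals with no pseudocount. Their intervals are exact (Clopper-Pearson, from the Cd library's part of all reads of the model), those of levels are exact Poisson, and that of the difference between genotypes is normal. The ratio intervals and the way the number of models tested was found were tested on simulated data. The Poisson and normal intervals were not. The genes and lists were chosen with earlier results of these data known. Genes named were the 3 members, EIN3 and EIL1, every listed gene of the lists with 1 RPKM or more, and the 3 nearest models of each member. Genes named outside this rule are relatives set beside a member by sequence, genes named as not listed, photosynthesis markers and, chosen after their values were seen, the AP2/ERF loci of the closing section. All 78 list genes were in the annotation. Of 1518 listed models, 1476 were named in the TAIR10.1 annotation and all 1476 overlapped their deposited position there, 218 with the same start and end. Sequences came from that genome, and identities from global alignment. Alternatives were a pseudocount of 1 RPKM, centring, summed models, 0.5 read added, a 4-fold limit, minimums of 5 RPKM or none, and an FDR of 1e-05. The tools were Biopython 1.88, SciPy 1.17.1, pandas 2.3.3, numpy 2.4.6 and matplotlib 3.10.9, in Python 3.11.15.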

Additional observations from a re-analysis of the deposited data

How the results depend on the processing

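The Cd log2 ratios of ACS5, ACO4 and ETR2 kept their direction under every alternative run, but only centring of ACO4 could have reversed it. A pseudocount added to both levels cannot reverse a ratio. Summed models returned the same values, since each gene has 1 listed model per table. Centring subtracted a positive median, which can only lower the ratios of ACS5 and ETR2. A pseudocount of 1 RPKM, which is larger than most values of ACS5 and ETR2, brought the log2 ratio of ACS5 to -0.89 in ein3eil1 and -0.70 in Col and that of ETR2 to -0.75. Centring on the median of listed models, a subtraction that is no estimate of a scaling error, moved ETR2 to -2.55 and ACO4 to 0.29. At a 4-fold limit the pathway genes counted in ein3eil1 were 0 higher and 1 lower, against 1 and 6 at 2-fold, and those in Col were 0 higher, against 1. With no minimum level Col had 1 lower gene, ACS5, against 0. The difference of the Cd log2 ratios of ACS5, ein3eil1 minus Col, was -0.20 with the pseudocount and -0.03 with 0.5 read added, against 0.06, all within its counting interval. With those included, 25 pairs of a result and a setting stayed within the counting interval, or within 1.5 times a count. The summed models are among these pairs, though their outcome was fixed in advance. No paired analysis was possible because each group has 1 library. ACS5 with Cd stands at 2 and 3 reads, which limits every value that uses it.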

Other observations

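A wider set, chosen after the values were seen, took every listed locus whose deposited description is one given to AP2/ERF proteins (mostly Integrase-type DNA-binding superfamily protein), the family of the ERF factors. In ein3eil1 it held 8 loci, 7 lower and 1 higher with Cd, and in Col 3 loci, all higher. Over all models tested 2.21% were listed as higher and 1.29% as lower in ein3eil1, and 1.56% and 1.24% in Col. The size of the family among the models tested was not counted, so these counts are no share and give no result about the family. DDF1, known from salt stress, had the lowest ratio, with 78 reads with Cd, against 343 reads in the control, in ein3eil1 (4.32 and 18.8 RPKM, 4.35-fold lower). ORA47, linked to jasmonate, had 49.4 RPKM with Cd, against 111 RPKM in the control, in ein3eil1 (2.24-fold lower). LEP, a regulator of leaf and petiole growth, was the 1 locus in both tables and was higher in both: 71.1 RPKM with Cd, against 25.5 RPKM in the control, in ein3eil1, and 104 RPKM, against 49.3 RPKM, in Col. RAP2.9 was 2.02-fold higher in Col. Whether the family differed between genotypes was not tested.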
